A study of Mus musculus with 14 samples.

Results

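Mitochondrial ribosomal proteins are the protein components of the ribosome inside mitochondria. In the arrays of this study, 76 genes carried a symbol made of Mrpl or Mrps and a number, out of 18193 genes measured. They were picked by symbol, from probe sets (groups of short probes that report a transcript) annotated with 1 gene. No measured value entered the symbol rule, but the list was chosen with earlier results of these data known. Where a gene had several probe sets, the brightest over all 14 arrays stood for it, so each gene has 1 value in a sample. By textbook structure 49 of the genes encode proteins of the large subunit and 26 of the small subunit. Mrps36 was left unassigned, because its product is now known as a component of the 2-oxoglutarate dehydrogenase complex.

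Heart and hippocampus RNA of C57BL/6 mice was measured at 2 ages on single-colour Affymetrix arrays. Pup hippocampus and pup heart were dissected from untreated mice 7 days old, whose sex is not given, and each had 3 biological replicates. Adult hippocampus and adult heart RNA was bought, came from untreated males 10 weeks old, and had 2 biological replicates of 2 arrays each for each tissue. That count follows the sample titles, whereas other labels of the same arrays, and the study's methods, count 4 replicates for each adult tissue; the counts under that reading are given with the other alternatives. The labels do not say that the adult replicates were separate animals, so the p-values reflect only how much these samples vary, and that variation may be technical. No allele or agent was involved in any group. Both tissues were measured whole, so fewer cells of a type and less RNA per cell cannot be told apart.

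The mitochondrial ribosome translates the few messages encoded by mitochondrial DNA, all of which are core subunits of the respiratory chain complexes and the ATP synthase. Its RNA comes from mitochondrial DNA, whereas every one of its proteins is encoded in the nucleus, made on cytosolic ribosomes and imported. Many of the proteins descend from those of the bacterial ribosome, and others were added in mitochondria: 46 of the 76 genes were assigned a bacterial counterpart and 29 none. Heart muscle is among the tissues richest in mitochondria.

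The values are log2 expression values, and every difference below is a difference of log2 values between groups, with the standard error (SE) of a limma fit across all genes. A gene was called higher or lower where its Benjamini-Hochberg adjusted p over all genes was below 0.05. Array medians lay between 8.73 and 8.98. In pup heart all 8 heart muscle markers were higher than in pup hippocampus, but their mean level in the pup hippocampus samples was 10.8, 9.70 and 8.75, against 8.20 and 8.28 in adult hippocampus and 13.21 to 15.03 in the heart samples, so heart muscle transcripts read higher in the first and second pup hippocampus samples than in the others of that tissue. Of 8 neuron markers, 3 were higher in hippocampus than heart at each age, and Neurod2, a defining marker, read 15.01 to 15.41 in every sample of both tissues. The hippocampus minus heart difference was negative for 3 of the 8 in pups and 2 in adults. Camk2a read 14.88 to 15.32 in pup heart against 14.08 to 14.64 in pup hippocampus. Prox1 read 13.19 and 12.46 in adult heart against 12.10 and 10.99 in adult hippocampus. Added hybridization controls had an adult minus pup difference of -2.43 in heart and -2.35 in hippocampus. Age, RNA source and hybridization differ together between the ages and cannot be told apart. By the study's methods the pup RNA was isolated mRNA and the adult RNA was bought as total RNA, so RNA type differs with them. So may sex, which is given only for the adults.

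Over all members the sample medians separated pup heart from the other groups. For each gene the mean over the 10 samples was subtracted, and the median over the 76 genes was then taken in each sample. It was 0.40, 0.20 and 0.32 in pup heart and -0.13, -0.14 and -0.05 in pup hippocampus. In adult heart it was -0.09 and 0.05, and in adult hippocampus -0.22 and -0.26. The pup heart samples were the 3 highest of the 10, and both adult hippocampus samples lay below every other sample. In the small subunit the second pup heart sample, at 0.06, came close to the pup hippocampus samples at 0.02 to 0.03.

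**Figure D1:**
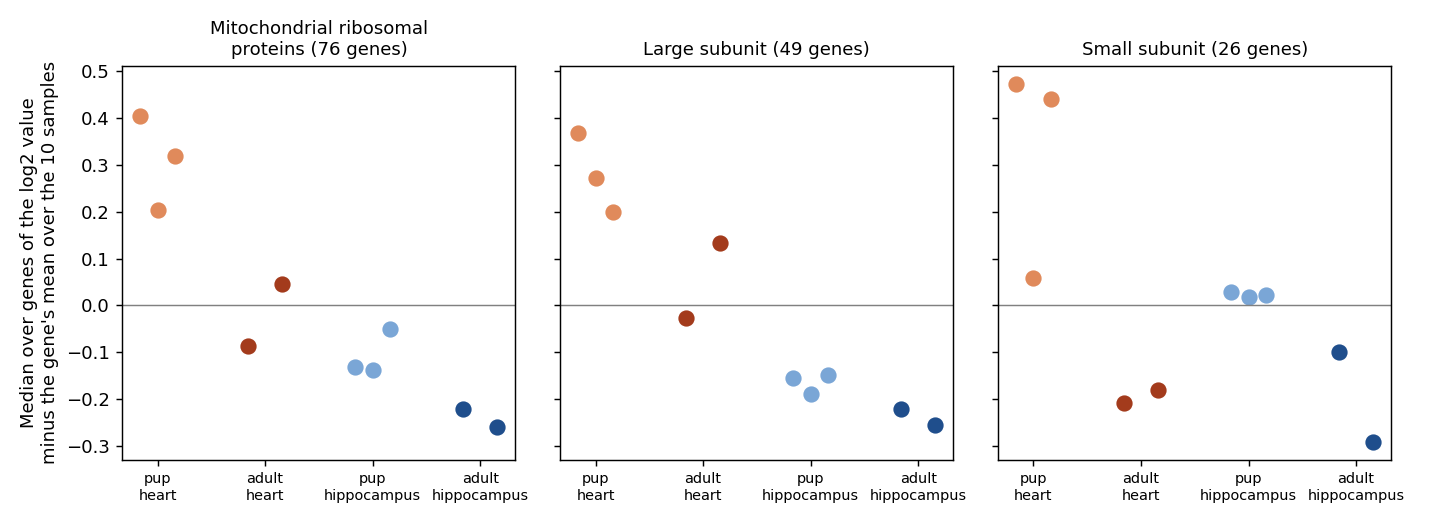
Each point is a biological sample: the y axis gives the median, over the genes named in the panel title, of the log2 value minus the gene's mean over the 10 samples, and the x axis gives the group. Over the 76 genes the 3 pup heart samples sit between 0.20 and 0.40, above the other samples, and the adult hippocampus samples are lowest at -0.22 and -0.26.

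The first comparison asked how the genes differ between pup and adult heart. In heart, 14 of the 76 genes were lower in adults, 2 were higher and 60 did not pass the test. Over all genes 9.38% were lower and 11.2% higher, 20.6% in either direction, against 18.4% lower and 2.63% higher among the members. The median difference of the members was -0.37, and that of all genes was 0.09. By subunit, 6 of 49 large subunit genes were lower and 1 was higher (median -0.13), and 7 of 26 small subunit genes were lower and 1 was higher (median -0.46). By ancestry, 9 of 46 genes with a bacterial counterpart and 4 of 29 without were lower, with 1 higher in each set. The samples of the ages did not overlap for 40 of the 76 genes (52.6%, against 48.7% of all genes).

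In hippocampus the second age comparison gave 8 genes lower in adults, 2 higher and 66 that did not pass. Over all genes 7.44% were lower and 8.64% higher, 16.1% in either direction, so the share of members that passed (13.2%) was below the share of all genes. The median difference was -0.08, against 0.10 over all genes. Of the large subunit genes 5 were lower and 2 higher, and of the small subunit genes 3 were lower and 0 higher. The samples of the ages did not overlap for 44 genes (57.9%, against 55.1% of all genes). A separate test of whether the age difference differs between the tissues passed for 1 member with a larger and 1 with a smaller difference in heart, described below, where 2.45% and 1.23% of all genes did, 3.68% together.

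**Figure D2:**
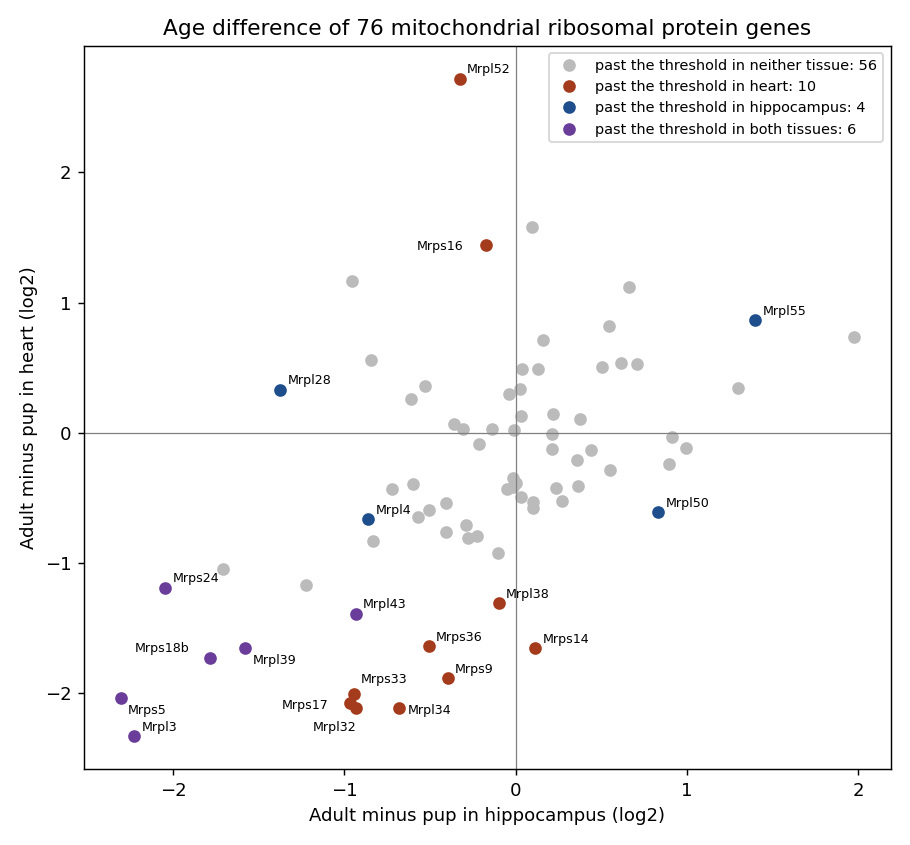
Each point is 1 of the 76 genes, with its adult minus pup difference (log2) in hippocampus on the x axis and in heart on the y axis, coloured by the tissue in which it passed the test. The 6 genes past the threshold in both tissues lie in the lower left quadrant, and Mrpl52 stands alone at the top, at 2.72 in heart and -0.33 in hippocampus.

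The same 6 genes were lower in adults of both tissues: Mrpl3, Mrpl39, Mrpl43, Mrps5, Mrps18b and Mrps24. They made up 42.9% of the 14 genes lower in adult heart and 75% of the 8 lower in adult hippocampus, and over all genes these shares were 38% and 47.9%. Mrpl3 is the counterpart of bacterial L3, a core protein of the large subunit near the peptidyl transferase centre. It read 14.41, 13.04 and 14.67 in pup heart, 11.69 and 11.73 in adult heart, 13.56, 13.21 and 13.70 in pup hippocampus, and 11.14 and 11.39 in adult hippocampus. Every adult sample of both tissues lay below every pup sample. The difference was -2.33 in heart, 5.03-fold lower in adults (SE 0.43, adjusted p = 0.00694), and -2.23 in hippocampus (SE 0.43, adjusted p = 0.0113).

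Of the other 2 large subunit genes in this set, both lack a bacterial counterpart. Mrpl43 fell by 1.39 on the log2 scale in heart (SE 0.27, adjusted p = 0.00832), from 9.55, 9.50 and 10.14 to 8.26 and 8.42. In hippocampus it read 10.22, 9.85 and 9.81 in pups and 8.86 and 9.19 in adults, a difference of -0.94 (adjusted p = 0.0458). The ages did not overlap in either tissue. Mrpl39 read 13.33, 12.14 and 12.37 in pup heart against 10.96 and 10.97 in adult heart (-1.65, adjusted p = 0.0163), and 11.64, 11.17 and 12.00 in pup hippocampus against 9.84 and 10.21 in adult hippocampus (-1.58, adjusted p = 0.0241).

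In the small subunit, Mrps5 and Mrps24 are the counterparts of bacterial S5 and S3, which line the entry of the messenger RNA channel. Mrps24 read 12.45, 11.26 and 12.37 in pup heart and 10.82 and 10.86 in adult heart (-1.19, SE 0.35, adjusted p = 0.0430), and 11.43, 11.11 and 11.51 in pup hippocampus and 9.24 and 9.37 in adult hippocampus (-2.05, SE 0.35, adjusted p = 0.00695). Its adult and pup samples were apart in both tissues, most widely in hippocampus. Mrps5 read 12.97, 12.99 and 13.81 in pup heart, 10.50 and 11.94 in adult heart, 13.01, 13.33 and 13.00 in pup hippocampus and 11.72 and 9.89 in adult hippocampus. Its differences were -2.04 in heart (SE 0.58, adjusted p = 0.0359) and -2.31 in hippocampus (SE 0.58, adjusted p = 0.0273), and its technical arrays were far apart: the 2 arrays of the first adult heart sample read 12.14 and 8.85. Mrps18b belongs to a family of 3 mammalian relatives of bacterial S18. It read 13.47, 12.67 and 13.30 in pup heart and 11.32 and 11.52 in adult heart, with a difference of -1.73 (adjusted p = 0.0140), and in hippocampus, where it read 14.15, 13.27 and 14.49 in pups and 12.03 and 12.34 in adults, -1.78 (adjusted p = 0.0157). Its relatives did not pass either age test: Mrps18a, which sits in the large subunit, differed by 0.54 in heart and 0.61 in hippocampus, and Mrps18c by -0.49 and 0.03.

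**Figure D3:**
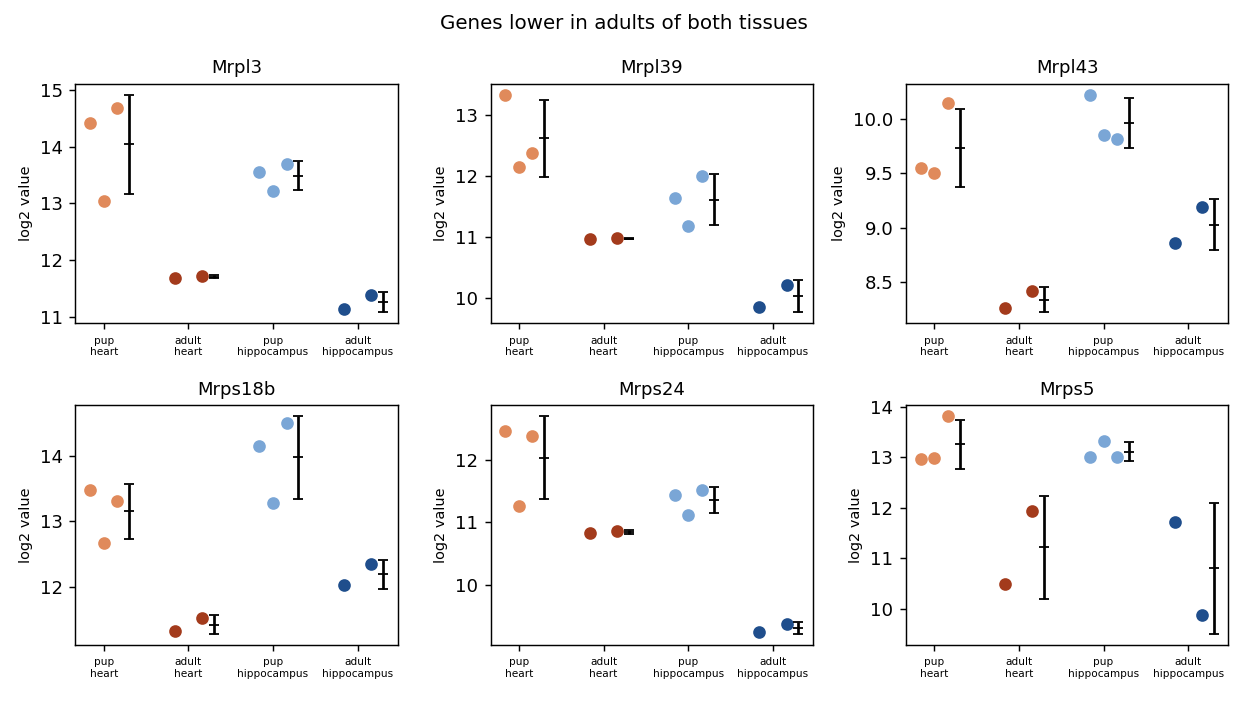
The log2 value (y axis) of the 6 genes called lower in adults of both tissues, with a point per biological sample, and a bar at the group mean with its SD (n = 3 in pups, n = 2 in adults). In every panel the adult points of a tissue lie below its pup points, for example Mrpl3 in heart at 11.69 and 11.73 against 13.04 to 14.67.

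Of these 6 genes Mrpl43 and Mrps18b had 1 probe set each, and the others had several that did not all pass. In a fit of all 34958 probe sets that name 1 gene, a dimmer probe set of Mrpl3 was higher in adult hippocampus by 1.42 (adjusted p = 0.00758), and 2 dimmer probe sets of Mrps5 were higher there by 1.34 and 1.22. The dimmer probe set of Mrpl39 differed by -0.56 in heart (adjusted p = 0.316) and -0.58 in hippocampus (adjusted p = 0.311). Across the members called in heart, 9 had several probe sets, and for 1 of them another probe set passed in the same direction. In hippocampus, of 6 such members, another probe set passed in the same direction for 2. Among these was Mrps24, with a second probe set at -1.59 in hippocampus (adjusted p = 0.0359) that did not pass in heart (-0.93, adjusted p = 0.158).

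Of the remaining 8 genes lower in adult heart, which did not pass the test in hippocampus, Mrpl32 and Mrpl34 are counterparts of bacterial large subunit proteins, and Mrpl38 was added in mitochondria. Mrpl32, whose precursor is cut by the m-AAA protease after import, read 11.02, 10.00 and 11.11 in pup heart and 8.44 and 8.76 in adult heart (-2.11, SE 0.34, adjusted p = 0.00386). In hippocampus it read 9.85, 9.52 and 9.82 in pups and 8.79 and 8.81 in adults, a difference of -0.93 that did not pass (adjusted p = 0.0928). The ages were apart in both tissues, and the test of the difference between tissues did not pass (-1.18, adjusted p = 0.210). Mrpl34 read 13.43, 12.24 and 13.46 against 10.98 and 10.88 in heart (-2.11, adjusted p = 0.00797). Mrpl38 differed by -1.31 in heart (adjusted p = 0.0405), and its dimmer probe sets differed there by -0.09 and 0.92 and did not pass.

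In the small subunit, Mrps9, Mrps14 and Mrps17 have bacterial counterparts and Mrps33 has none. Mrps17 read 13.30, 11.89 and 13.20 in pup heart and 10.80 and 10.65 in adult heart (-2.08, adjusted p = 0.0101). Mrps33 read 12.73, 11.56 and 12.44 against 9.87 and 10.61 (-2.01, adjusted p = 0.0102), and Mrps9 read 10.02, 9.12 and 10.68 against 7.99 and 8.13 (-1.88, adjusted p = 0.0101). The dimmer probe sets of Mrps9 differed there by -0.05, -1.49 and 0.27 and did not pass. On the chosen probe sets of Mrps17, Mrps33 and Mrps9 the adult heart samples were below all pup heart samples. The second pup heart sample was nearest to them. That sample was the lowest of the pup heart samples for 12 of the 14 genes lower in adult heart. The mean level of 7 neuron markers was 10.96, 11.02 and 10.92 in the 3 pup heart samples, while an 8th, Bcl11b, read 7.91, 15.02 and 10.30. That mean cannot measure neural RNA in heart, because Neurod2, Camk2a and Syt1 were about as bright in pup heart as in pup hippocampus. The difference between the 3′ and 5′ probe sets of Gapdh, which rises as RNA shortens, was 0.72 in the second sample against 2.49 and 3.80 in the other pup heart samples and 1.58 and 1.76 in adult heart. For beta-actin it was 0.39 in the second sample and 0.575 and 0.82 in the other pup heart samples. In adult heart the beta-actin difference was lower still, at 0.04 and -0.001. The part of RNA quality in the values of this sample was not tested. Mrps14 (-1.65, adjusted p = 0.00940) is described with the tissues, and the unassigned Mrps36 differed by -1.64 (adjusted p = 0.0235).

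Against this direction, Mrpl52 and Mrps16 were higher in adult heart. Mrps16, the counterpart of bacterial S16, whose mutation in humans causes a mitochondrial translation disorder, read 10.03, 9.84 and 9.62 in pup heart and 11.29 and 11.25 in adult heart (1.44, 2.72-fold, SE 0.21, adjusted p = 0.00269). In hippocampus it read 8.67, 8.87 and 8.74 in pups and 8.51 and 8.66 in adults, a difference of -0.18 (adjusted p = 0.612). The age difference was larger in heart than in hippocampus by 1.62 (SE 0.30, adjusted p = 0.0224). Mrpl52, a large subunit protein without a bacterial counterpart, read 12.70, 11.22 and 10.33 in pup heart and 14.29 and 13.98 in adult heart (2.72, SE 0.55, adjusted p = 0.00978). A dimmer probe set of Mrpl52 was lower in adult heart (-1.57, adjusted p = 0.00214), so the direction for this gene depends on the probe set.

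In hippocampus 2 further genes were lower in adults and 2 were higher, all of the large subunit. Mrpl28 read 9.71, 9.93 and 10.57 in pups and 8.55 and 8.84 in adults (-1.37, SE 0.31, adjusted p = 0.0194), and 10.16, 9.91 and 9.98 in pup heart against 10.68 and 10.02 in adult heart. Its dimmer probe sets were lower in adult hippocampus too (-0.97 and -1.97) and differed by -0.55 and -1.04 in heart, where neither passed. Mrpl4, the counterpart of bacterial L4 at the wall of the exit tunnel, read 10.27, 9.93 and 10.47 in pups and 9.30 and 9.42 in adults (-0.86, adjusted p = 0.0355). Mrpl55 read 11.87, 12.25 and 12.29 in pups and 13.34 and 13.74 in adults (1.40, SE 0.28, adjusted p = 0.0128). Both Mrpl55 and Mrpl50 lack a bacterial counterpart.

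The age difference of Mrpl50 was positive in hippocampus and negative in heart. It read 12.99, 12.96 and 13.20 in pup hippocampus and 13.95 and 13.82 in adult hippocampus (0.83, SE 0.23, adjusted p = 0.0412), a call that was lost after median centring of the arrays. In heart it read 13.02, 13.17 and 13.40 in pups and 12.36 and 12.82 in adults, a difference of -0.61 that did not pass (adjusted p = 0.0986). Pup samples of the tissues overlapped, whereas adult hippocampus lay above adult heart. Subtracting the hippocampal from the cardiac age difference gave -1.44 (SE 0.33, adjusted p = 0.0491). The same subtraction for its dimmer probe set gave -0.20 and did not pass (adjusted p = 0.933).

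These age counts depended on the few adult samples. Without the first adult heart sample 2 genes were called in heart and without the second 6, and the calls that held without any 1 sample were Mrpl32 and Mrps16. In hippocampus 1 gene was called without either adult sample, 5 without the third pup sample, and 0 calls held throughout.

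The second question was how the tissues differ at a given age. Each group enters an age comparison and a tissue comparison, so a gene called in both rests in part on the same samples. In pups 10 of the 76 genes were lower in hippocampus than in heart, 0 were higher at the limma threshold and 66 did not pass. In the fit of all probe sets, 14 of those 66 had another probe set that was called. Among these only that of Mrps5 was higher in hippocampus (0.82, adjusted p = 0.0397). Over all genes 7.43% were lower and 8.26% higher, 15.7% in either direction. The median difference of the members was -0.47, against -0.10 over all genes, with 6 of the large subunit and 3 of the small subunit genes lower, and Mrps36. At an unadjusted p below 0.05, 23 members (30.3%) differed in either direction, against 28.5% of all genes. In adults 12 genes were lower in hippocampus, 2 were higher and 62 did not pass, where 10.2% of all genes were lower and 9.47% higher, 19.7% in either direction. The median was -0.24, against -0.03 over all genes. For the large subunit 9 genes were lower and 1 was higher (median -0.26), and for the small subunit 3 were lower and 1 was higher (median 0.07). The samples of the tissues did not overlap for 21 members in pups (27.6%, against 31.7% of all genes) and for 51 in adults (67.1%, against 66%).

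At both ages 7 genes were lower in hippocampus: Mrpl2, Mrpl4, Mrpl16, Mrpl42, Mrpl44, Mrpl52 and Mrps16. They were 70% of the 10 genes lower in pup hippocampus and 58.3% of the 12 lower in adult hippocampus, and over all genes these shares were 38.3% and 27.9%. All but Mrps16 belong to the large subunit. Mrpl42, a protein without a bacterial counterpart that was once listed under the small subunit as well, read 11.27, 10.78 and 10.42 in pup hippocampus, 14.79, 13.73 and 13.16 in pup heart, 10.62 and 10.93 in adult hippocampus, and 13.71 and 13.22 in adult heart. The tissues were far apart at each age and the ages of a tissue overlapped. The difference was -3.07 in pups, 8.39-fold lower in hippocampus (SE 0.41, adjusted p = 0.000956), and -2.69 in adults (SE 0.50, adjusted p = 0.00622). Its much dimmer second probe set differed by -0.10 in pups and was lower in adult hippocampus (-1.79, adjusted p = 0.00970).

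Mrpl52 was the gene with the largest tissue difference of the 76 in adults. It read 8.70, 8.63 and 8.87 in pup hippocampus and 8.35 and 8.47 in adult hippocampus, against the heart values given above. Every hippocampus sample lay below every heart sample. The difference was -2.68 in pups (SE 0.49, adjusted p = 0.00598) and -5.72 in adults, 52.9-fold lower in hippocampus (SE 0.60, adjusted p = 0.000549). Of its 3 dimmer probe sets, 2 were lower in pup hippocampus (-1.58 and -2.01), and 0 passed between the adult tissues, with differences of 0.28, 0.07 and -1.68.

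Mrpl16, the counterpart of bacterial L16, and Mrps16 had close replicates. Mrpl16 read 7.35, 7.00 and 7.15 in pup hippocampus and 8.17, 8.09 and 8.07 in pup heart (-0.94, SE 0.18, adjusted p = 0.00712), and 6.64 and 6.63 in adult hippocampus and 8.43 and 8.51 in adult heart (-1.84, SE 0.22, adjusted p = 0.000876). Mrps16 differed by -1.07 in pups (adjusted p = 0.00492) and by -2.68 in adults, 6.43-fold lower in hippocampus (SE 0.23, adjusted p = 0.000212). For both genes the heart and hippocampus samples were apart at each age. Mrpl2, a core counterpart of bacterial L2, differed by -1.28 at each age (adjusted p = 0.0152 in pups and 0.0326 in adults), from 12.04, 11.47 and 11.91 in pup heart to 10.55, 10.01 and 11.01 in pup hippocampus, and from 10.81 and 11.14 in adult heart to 9.62 and 9.76 in adult hippocampus. Mrpl4 differed by -0.98 in pups and -1.18 in adults.

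Mrpl44 carries a domain related to ribonuclease III, and its mutation in humans is a known cause of infantile cardiomyopathy. It read 12.18, 11.31 and 12.44 in pup heart, 11.10, 10.81 and 11.09 in pup hippocampus, 11.59 and 11.50 in adult heart, and 10.28 and 10.28 in adult hippocampus. Heart lay above hippocampus in each age without overlap. The difference was -0.98 in pups (adjusted p = 0.0497) and -1.27 in adults (adjusted p = 0.0338), and neither call held after median centring of the arrays.

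**Figure D4:**
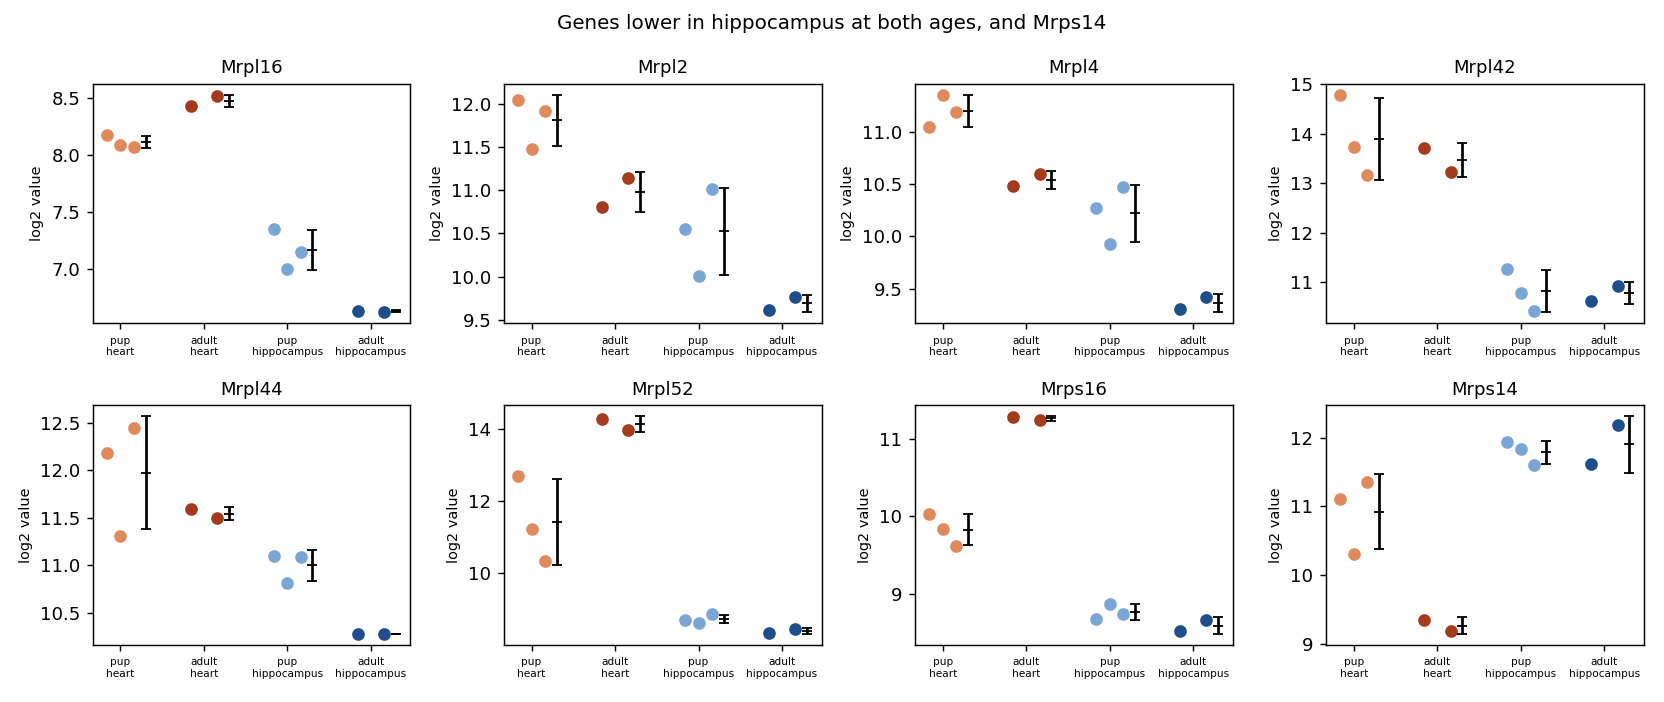
The log2 value (y axis) of the 7 genes called lower in hippocampus than in heart at both ages, and of Mrps14, with a point per biological sample and a bar at the group mean with its SD (n = 3 in pups, n = 2 in adults). The heart points lie above the hippocampus points of the same age in the first 7 panels, widest for Mrpl52 in adults, and the chosen probe set of Mrps14 shows the opposite order.

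In pups 3 further genes, Mrps21, Mrps23 and Mrps36, were called lower in hippocampus that did not pass in adults. Their adult differences were also negative, -0.55, -0.42 and -0.30, and the test of a difference between the ages did not pass (adjusted p = 0.457, 0.199 and 0.323). Mrps23 read 8.94, 9.01 and 9.04 in pup hippocampus against 10.14, 10.51 and 10.12 in pup heart (-1.26, SE 0.21, adjusted p = 0.00333). In adults it went from 9.71 and 10.22 in heart to 9.54 and 9.55. Mrps21 differed by -1.21 in pups (adjusted p = 0.0184) and Mrps36 by -1.43 (adjusted p = 0.0300). Of the 10 genes lower in pup hippocampus, the first pup hippocampus sample, with the highest heart muscle markers, was the highest of its group for 4, the second for 2 and the third for 4. The third sample had the lowest heart muscle markers of the group but a 3′ minus 5′ Gapdh difference of 4.97, against 2.90 and 3.03 in the others. Its beta-actin difference, 2.48, was closer to those of the others, 2.34 and 1.84. With only the third pup hippocampus sample in its group, 2 members were called in pups, and without the second sample 6, whereas leaving out any 1 sample left Mrpl16, Mrpl42, Mrpl52, Mrps16 and Mrps23 called.

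In adults 5 further genes were called lower in hippocampus that did not pass in pups: Mrpl14, Mrpl28, Mrpl40, Mrps24 and Mrps35. The test of a difference between the ages did not pass for any of them (adjusted p = 0.0688 for Mrpl28 and 0.132 to 0.655 for the others), and Mrps24 and Mrps35 differed by -0.68 and -0.82 in pups. Mrpl40, a protein without a bacterial counterpart, read 14.95 and 14.70 in adult heart and 12.46 and 12.52 in adult hippocampus (-2.33, SE 0.61, adjusted p = 0.0264), and 13.71, 14.03 and 12.00 against 12.65, 12.75 and 11.79 in pups, where the tissues overlapped. Mrpl28 differed by -1.65 (adjusted p = 0.00996), Mrps24 by -1.53 and Mrpl14 by -1.25, and the call of Mrpl14 was lost under each of the 3 scalings of the arrays tried. The other probe sets of Mrpl28 differed by -0.48 and -0.63 and did not pass (adjusted p = 0.318 and 0.396). On the chosen probe set of Mrpl28 the arrays of the first adult heart sample read 9.83 and 11.53. Mrps14 and Mrpl50 were higher in adult hippocampus. Mrps14, the counterpart of bacterial S14, read 11.61 and 12.19 in adult hippocampus and 9.35 and 9.18 in adult heart (2.63, 6.19-fold higher in hippocampus, SE 0.36, adjusted p = 0.00166). In pups it read 11.93, 11.83 and 11.60 in hippocampus and 11.11, 10.31 and 11.35 in heart, so the tissues were apart at both ages, with a pup difference of 0.86 that did not pass (adjusted p = 0.0861). Its other probe sets did not share one order: that nearest in level was lower in pup hippocampus (-0.91, adjusted p = 0.0271) and differed by -0.28 in adults, and the dimmest was higher in adult hippocampus (1.66, adjusted p = 0.0248). Mrpl50 was higher in adult hippocampus by 1.30 (adjusted p = 0.00792). Leaving out an adult sample left 5 to 8 members called between the adult tissues: 6 and 7 without the first and second hippocampus sample, and 5 and 8 without the first and second heart sample.

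Across the 4 comparisons of groups, 47 of the 76 genes were called in none, 12 in 1, 13 in 2 and 4 in 3 (Mrpl4, Mrpl52, Mrps16 and Mrps24). These were 61.8%, 15.8%, 17.1% and 5.26% of the members, against 58.3%, 18.2%, 18% and 4.05% of all genes. A call that was missed does not show a level that stayed the same. In the fit of all probe sets, another probe set was called for 9 members uncalled by age in heart and 8 uncalled in hippocampus. Between the tissues this held for 14 uncalled members in pups and 12 in adults. By age in heart the other probe set was higher in adults for Mrpl21, Mrpl42 and Mrps2, and lower for Mrpl33, Mrpl35 and Mrpl54. Mrpl11, Mrpl47 and Mrpl51 had other probe sets called in both directions there. By age in hippocampus it was higher for Mrpl17, Mrpl44, Mrps2, Mrps23 and Mrps31, and lower for Mrpl33 and Mrps15. Mrpl11 had both directions there too. Of the 60 genes not called by age in heart, the 95% interval of the difference lay within 1 log2 unit of zero for 13. It did so for 26 of 66 in hippocampus, 21 of 66 between pup tissues and 16 of 62 between adult tissues. The largest difference that did not pass was that of Mrpl1 in hippocampus, 1.97 higher in adults (adjusted p = 0.0798), where the adult samples read 13.30 and 11.75 and the pup samples 10.62, 10.88 and 10.16.

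Members of known position or function that were not called by age include those of the stalk, which recruits translation factors to the large subunit. Mrpl10, the base of the stalk, differed by 0.10 in heart (95% interval -0.38 to 0.59) and by 0.37 in hippocampus (-0.11 to 0.86). Mrpl12, the stalk protein itself, differed by -0.21 (-1.01 to 0.60) and 0.36 (-0.45 to 1.16). Mrpl11, at the stalk base, differed by -0.13 and 0.44 with wide intervals, and its technical arrays differed by up to 3.50. Its 3 dimmer probe sets included 1 that was higher in adults of both tissues (1.53 in heart and 1.28 in hippocampus) and 1 that was lower in both (-1.67 and -1.36). Mrps12, the counterpart of the decoding protein S12, differed by 0.30 in heart (-0.34 to 0.94) and -0.04 in hippocampus (-0.68 to 0.59). Mrps30, which sits in the large subunit despite its symbol, differed by 0.53 and 0.71. Mrpl58, a peptidyl-tRNA hydrolase built into the large subunit, differed by 1.16 in heart (-0.85 to 3.18) and -0.96 in hippocampus (-2.97 to 1.06), intervals too wide to bound it. Its pup hippocampus samples read 11.20, 14.87 and 14.23. A dimmer probe set of Mrpl58 differed by age by -0.36 in heart and -0.23 in hippocampus, and did not pass. That probe set was lower in hippocampus than in heart in pups (-1.47, adjusted p = 0.0072) and adults (-1.34, adjusted p = 0.0245). Between the tissues the chosen probe set differed by 1.25 in pups and -0.87 in adults, and did not pass.

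The promoters of the genes were set beside these differences as a description. RefSeq gave promoter windows for 67 of the 76 genes on the mouse build GRCm38.p6, and the 250 bases before the start were searched on both strands. The ETS core CCGGAAG was present for 17 of the 67 genes (25.4%, against 7.83% of 27025 genes with a window), and the NRF1 motif core GCATGCG for 8 (11.9% against 3.43%). The YY1 motif core GATGGCG was present for 2.99% against 2.52%, and the TATA box letters TATAAA for 7.46% against 14.3%. The median GC content was 58.4% in the members' windows and 52.4% in all windows, and the letters searched differ in GC content. ETS and NRF1 factors are known regulators of nuclear genes for mitochondrial proteins. Of the 6 genes lower in adults of both tissues, 2 held the ETS core, 2 the NRF1 core and 1 the TATA letters. Of the 6 with a window among the 7 genes lower in hippocampus at both ages, 2 held the ETS core. In that set 1 held the TATA letters and 0 the NRF1 core.

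The windows of Mrpl3 and Mrpl43, lower in adults of both tissues, and of Mrpl52 and Mrpl16, lower in hippocampus at both ages, are shown as the 120 bases before the start of the gene, 5′ to 3′ on its strand. Whether these letters go with the patterns of the genes was not tested. Capitals mark the ETS core on either strand, or TATAAA in Mrpl16.
Mrpl3, chr9:105053148-105053267, + strand: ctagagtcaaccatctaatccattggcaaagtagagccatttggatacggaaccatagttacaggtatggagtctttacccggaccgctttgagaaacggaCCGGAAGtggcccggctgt
Mrpl43, chr19:45006443-45006562, - strand: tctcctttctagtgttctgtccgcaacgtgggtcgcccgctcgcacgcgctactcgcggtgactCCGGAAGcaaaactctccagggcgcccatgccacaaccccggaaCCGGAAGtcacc
Mrpl52, chr14:54426789-54426908, + strand: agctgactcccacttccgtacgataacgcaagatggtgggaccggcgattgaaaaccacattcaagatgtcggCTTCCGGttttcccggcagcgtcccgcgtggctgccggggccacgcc
Mrpl16, chr19:11770295-11770414, + strand: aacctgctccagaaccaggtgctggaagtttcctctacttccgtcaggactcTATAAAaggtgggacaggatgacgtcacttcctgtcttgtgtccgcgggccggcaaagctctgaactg
Mrpl3 and Mrpl52 each hold 1 ETS core in this stretch and Mrpl43 holds 2. Mrpl3 and Mrpl43 read lower in adult heart than in pup heart, whereas the chosen probe set of Mrpl52 read higher there. A dimmer probe set of Mrpl52 was lower in adult heart (-1.57).

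Genes whose products act with the mitochondrial ribosome were read from the same fit. Of 5 measured mitochondrial ribosomal proteins with other symbols, Chchd1 was lower in adults of both tissues (-2.30 in heart, adjusted p = 0.00325, and -2.56 in hippocampus, adjusted p = 0.00299), Gadd45gip1 was higher in adult hippocampus (1.01) and Ptcd3 was lower in pup hippocampus than in pup heart (-0.74). Of 14 translation factors, Slirp was lower in adult heart (-1.28) and Tsfm, which recycles the elongation factor Tu, was higher in adult hippocampus (1.88, adjusted p = 0.0490), and 0 were called between the tissues. Of 26 genes of ribosome assembly and ribosomal RNA processing, 3 were higher and 3 lower in adult heart, led by Rcc1l (2.14) and Rbfa (-1.44). Rbfa was lower in adult hippocampus too (-1.33). Rcc1l was lower in adult hippocampus than in adult heart (-2.52, adjusted p = 0.00533), and its age difference was larger in heart (2.71, adjusted p = 0.0407). Of 21 genes that charge mitochondrial transfer RNAs or, as the amidotransferase subunit Qrsl1 does, complete glutaminyl-tRNA after charging, 4 were higher in adult heart, among them Ears2 (1.64) and Mars2 (1.39), and 2 were lower, Lars2 (-1.70) and Qrsl1 (-1.31).

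Cytosolic ribosomal proteins and complex I differed from the members in how many passed. Of 46 cytosolic ribosomal protein genes 30 were lower in adult heart and 2 higher (median -1.76), and 20 were lower in adult hippocampus and 0 higher (median -1.38). Between the tissues 2 were higher and 1 lower in pup hippocampus, and 2 were higher and 3 lower in adult hippocampus. Of 44 genes of complex I, part of whose subunits the mitochondrial ribosome makes, 19 were lower in adult heart and 15 in adult hippocampus, and 18 were lower in pup hippocampus and 9 in adult hippocampus than in heart. The members lay between these lists and all genes in the share lower in adult heart, 18.4% against 65.2% and 43.2%. The difference between lists was not tested. Of 20 genes of mitochondrial membranes and matrix, 9 were lower in adult heart, led by the channel Vdac2 (-3.69) and the chaperone Hspd1 (-2.51), and of 16 genes of mitochondrial DNA and transcription, Ppargc1b was lower (-2.28) and Tefm higher (1.43).

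**Figure D5:**
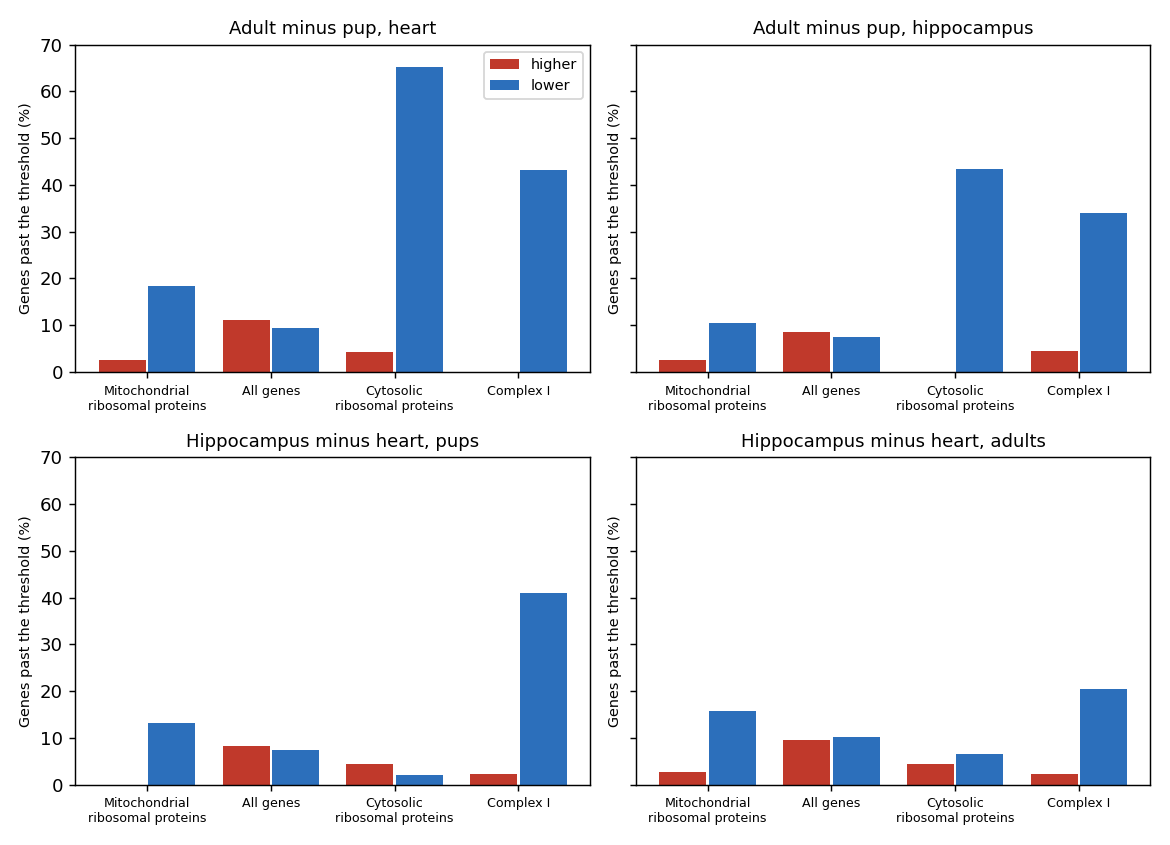
The bars give the percent of genes called higher (red) or lower (blue), on the y axis, for each gene list on the x axis and each comparison in a panel. Among the members the blue bars exceed the red ones in all 4 panels, 18.4% against 2.63% for age in heart, while cytosolic ribosomal proteins reach 65.2% lower there.

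Several marker lists moved with the heart age comparison. Of 8 heart muscle markers 3 were lower in adult heart, and the ages did not overlap for any of the 8 (median -1.32). Of 3 blood markers 2 were higher (median 1.37). The other, Alas2, read 11.20, 10.38 and 9.43 in pup heart and 9.53 and 9.47 in adult heart. Of 4 fibroblast markers 2 were lower, and of 3 dividing-cell markers 1 was lower. The mean level of 4 fibroblast markers was 13.1 to 13.9 in pup heart and 11.7 in both adult heart samples, and that of 3 dividing-cell markers was 8.39 to 9.98 in pup heart and 7.86 and 7.90 in adult heart. In hippocampus the mean level of the fibroblast markers was 11.97 to 12.22 in pups and 10.85 to 11.22 in adults. Of the 4, Col1a1 went the other way there, from 11.45, 11.34 and 11.01 in pups to 12.13 and 12.31 in adults. The mean difference between the 3′ and 5′ probe sets of Gapdh was 3.63 in pup and 1.29 in adult hippocampus, and 2.33 and 1.67 in heart. That of beta-actin was 2.22 in pup and 0.08 in adult hippocampus, and 0.59 and 0.02 in heart. The part of marker levels and RNA quality in the age differences was not tested.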

How the data were processed

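RNA of 10 biological samples was hybridized to 14 arrays. The labels give total RNA, whereas the study's methods describe mRNA isolated from the pup tissues and total RNA bought for the adults. The deposited values were log2 values of 45101 probe sets, which per the study's methods and the submitters' processing notes the authors made with RMA 2.0, summarizing probes by the upper decile. The sources used here do not give a background correction or detection calls. Values ran from 2.67 to 16.0 and were not scaled between arrays, so scaling was an alternative.

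Of the probe sets 34958 named 1 gene, 932 named several and 9211 were unnamed here. The probe set with the highest mean over the arrays stood for a gene. The 76 members had 156 probe sets, 34 members had 1 and 42 had several, 24 chosen probe sets were of types that can match several transcripts, and Mrpl30 and Mrpl53 were left out because they were on shared probe sets. All 76 matched a RefSeq gene. Technical arrays of an adult replicate, which differed by over 1 for 27 members and by over 2 for 9, were averaged.

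A limma fit (version 3.58.1, R 4.3.3) over all 18193 genes gave a mean for each of the 4 groups, with 6 residual and 3.10 prior degrees of freedom. The ages were compared within a tissue (adult minus pup), the tissues within an age (hippocampus minus heart), and the cardiac with the hippocampal age difference (the interaction). Tests were two-sided and adjusted by Benjamini-Hochberg over all genes. Low values were not filtered, the few arrays limit the precision, and the fit was tested on simulated data.

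The members, lists and tests were chosen with earlier results of these data known. Named genes were the 8 largest called differences each way in a comparison whose samples did not overlap, a fixed list (Mrps18a, Mrps18b, Mrps18c, Mrpl10, Mrpl11, Mrpl12, Mrps30, Mrpl42, Mrpl58, Mrps36, Mrps12 and Mrpl3), called interactions, and up to 4 called genes of a list. The other called members, Mrpl1 and the genes with promoters shown were named after their values were seen. Alternatives were 3 scalings, a filter on dim genes, 3 choices of probe set, each adult array as a sample, the biological replicate as a random block (statmod 1.5.0), only the groups compared, the methods' t-test, a replicate block, each sample left out, and, chosen after seeing the data, only the third pup hippocampus sample in its group. Figures were drawn with matplotlib 3.10.9.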

Additional observations from a re-analysis of the deposited data

Results flagged for a closer look

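The age difference differed between the tissues for 2 of the 76 genes, by the interaction term of the limma fit. For Mrpl50 the adult minus pup difference in heart minus that in hippocampus was -1.44 (SE 0.33, adjusted p = 0.0491). Its age difference was negative in heart, where both adult samples lay below the pup samples once their arrays were averaged. The single arrays read 13.02 and 11.69, and 13.20 and 12.43, against 13.02, 13.17 and 13.40 in pup heart. In hippocampus the age difference was positive, and both adult samples lay above the pup samples. A dimmer probe set of Mrpl50 differed by age by 0.04 in heart and 0.24 in hippocampus. Its interaction was -0.20 (adjusted p = 0.933 in the limma fit of all probe sets). For Mrps16 the interaction was 1.62 (SE 0.30, adjusted p = 0.0224), with an age difference of 1.44 in heart and -0.18 in hippocampus. Leaving out 1 sample gave 0 to 5 members past this threshold, and neither gene kept its call each time.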

How the results depend on the processing

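All 5 comparisons kept the direction of the member median under the alternatives that gave one. The pooled SD of the member median between samples was 0.076, and the median for age in hippocampus, at -0.075, was no larger. Median centring moved the median of all genes in heart from 0.09 to -0.07, and that of the members from -0.37 to -0.52 in heart and from -0.08 to -0.17 in hippocampus by age, and to -0.13 between adult tissues. With the further scaling these were -0.49, -0.15 and -0.14, and with quantile normalization -0.44 in heart and -0.16 in hippocampus by age. Above the median level, where 42 members remain, the age medians were -0.54 and -0.25 and that of the interaction -0.26, and the calls were 5 (pup tissues), 9 (adult tissues) and 0 (interaction). Without probe sets that can match several transcripts, 7 were called by age in heart (median -0.17), 5 in hippocampus and 0 for the interaction, and 2 heart calls were lost with their direction: Mrpl52 at -0.58 and Mrps5 at 0.0036. With the mean of a gene's probe sets the medians were -0.22 by age in heart, -0.032 by age in hippocampus and -0.36 between pup tissues. Between pup tissues 18 were called, 1 was called for the interaction, and Mrpl3 read 0.018 by age in hippocampus. With the most variable probe set the median was -0.22 by age in heart and -0.42 between adult tissues, where 22 were called and Mrpl44 read 0.012, and 1 interaction was called. With each adult array as a sample, which is the reading of 4 replicates for each adult tissue, 16 were called by age in hippocampus, 22 between the tissues in adults and 6 interactions, and with the random block 4 for the interaction. With only the groups compared 7 were called by age in heart. The methods' t-test called 0 by age in heart, 3 in hippocampus, 3 between pup tissues and 0 between adult tissues after Benjamini-Hochberg adjustment, and 0 in each at a false discovery rate of 0.1%, where limma called 0, 0, 1 and 3. With only the third pup hippocampus sample in its group 1 was called by age in hippocampus (median -0.16), 2 between pup tissues and 0 for the interaction (median -0.23).

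Same-numbered samples did not deviate together (r = 0.20, -0.09 and 0.00 in pups), so the numbers were not taken as pairs. With the replicate block the counts were 14 and 4 by age in heart and hippocampus, 9 and 13 between pup and adult tissues, and 0 for the interaction, and the heart median was -0.29.

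Leaving out 1 sample gave 2 to 22 calls by age in heart (median -0.38 to -0.26), 1 to 14 in hippocampus (-0.18 to -0.036), 6 to 15 between pup tissues (-0.52 to -0.36), 5 to 17 between those of adults (-0.29 to -0.088) and 0 to 5 interactions (-0.26 to -0.10). Signal over background was not known, so low values have no bound.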
